A study of Mus musculus with 17 samples.

Results

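Primary mouse neurons cultured with a particle of apolipoprotein E (ApoE particle) were compared with control neurons of the same table of counts, the second of 2 sets of libraries in this series that carry this treatment name. The comparison takes 4 of the 17 libraries of the series, chosen by the treatment in their titles, with 2 libraries of neurons given the ApoE particle and 2 of neurons given the control treatment. A further 2 libraries of the same set, from neurons given an ApoE reconstituted particle, serve as the most similar group. All 6 are libraries of unfractionated RNA from primary neurons of brain of the mouse strain C57BL/6, with no mutant allele or transgene named, sequenced after Trizol extraction with a NEBNext Ultra kit from 2 μg of RNA each. The labels give neither the dose and duration of treatment nor the particle's lipids, the age of the animals, or whether replicate libraries stem from different cultures. The p-values below therefore measure the spread between these libraries, which may be technical, and n is 2 libraries a group throughout.

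Apolipoprotein E is the main carrier of lipid between cells of the brain. It is secreted chiefly by astrocytes as a lipoprotein particle, which neurons take up through lipoprotein receptors, and cholesterol that arrives this way lowers the cell's own sterol synthesis through the transcription factor SREBP2. A pair of stress programmes recurs below. In the interferon response, a receptor and its JAK kinases activate STAT proteins and IRF9, which bind the interferon-stimulated response element (ISRE) and switch on antiviral genes, IRF7 among them. In the integrated stress response, kinases that sense amino acid shortage, unfolded protein, haem shortage or double-stranded RNA phosphorylate eIF2-alpha, and the transcription factor ATF4 then raises genes for amino acid synthesis, transport and tRNA charging.

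Pan-neuronal genes were abundant in all 6 libraries. The 10 pan-neuronal markers summed to 8637 and 8682 CPM (counts scaled to a common library size) in the controls, 8291 and 8532 CPM in the ApoE particle libraries and 8999 and 8934 CPM in the reconstituted libraries. Astrocyte markers were also present, at 2453 and 2291 CPM in the controls and 1745 and 1918 CPM with the ApoE particle. Microglia markers summed to 14.1 to 16.4 CPM in all 6 libraries, and of the 10 with a value 8, the defining C1qa, Tmem119, Cx3cr1 and P2ry12 included, were under the count filter. Vessel, mural and fibroblast markers summed to 196 and 128 CPM in the controls and 45.6 and 77.7 CPM with the ApoE particle. In such bulk libraries, fewer cells of a type and less RNA per cell cannot be told apart. Library totals lay between 16449492 and 17784968 counts. On the first principal component, which held 56.1% of the variance, both ApoE particle libraries lay at 46.5 and 40.7 and the other 4 between −24.2 and −20.4.

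Against control, 1641 of 16388 genes tested rose with the ApoE particle (10%) and 1976 fell (12.1%), so that 22.1% were called at an adjusted p under 0.05 (edgeR quasi-likelihood test with Benjamini-Hochberg adjustment). Counts for single lists below are to be read beside these shares. Calls were more frequent among abundant genes: 4.63% of genes below 1 CPM were called and 39.9% of those at 100 CPM or more. Of the 2547 genes at 100 CPM or more, 460 rose and 556 fell. For lists of abundant genes the shares over all genes are therefore a low yardstick, and list counts were not matched for abundance. Most of the called changes were small. At least 2-fold rises numbered 147 (0.897%) and at least 2-fold falls 358 (2.18%). By fitted size the balance shifted further: 74 genes fell and 7 rose at least 8-fold, and 20 fell and 0 rose at least 64-fold. Several of these 20, Oas1a, Apol9a and Casp4 among them, had 0 counts in both ApoE particle libraries, so their fitted sizes depend on the prior count. Casp4 was at a mean of only 0.748 CPM in the controls. Of the 74 genes that fell at least 8-fold, 49 belonged to 5 lists of interferon-pathway genes, and of the 147 that rose at least 2-fold, 31 belonged to 5 lists of the ATF4 and endoplasmic reticulum stress response. Over all their tested members, the interferon lists had 88 falls and 1 rise among 108 genes, and the stress lists 66 rises and 1 fall among 94. The median log2 fold change over all genes tested was 0.0006. These lists were drawn up with earlier results of the same libraries known, so their directions are a description and not independent evidence.

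**Figure D1:**
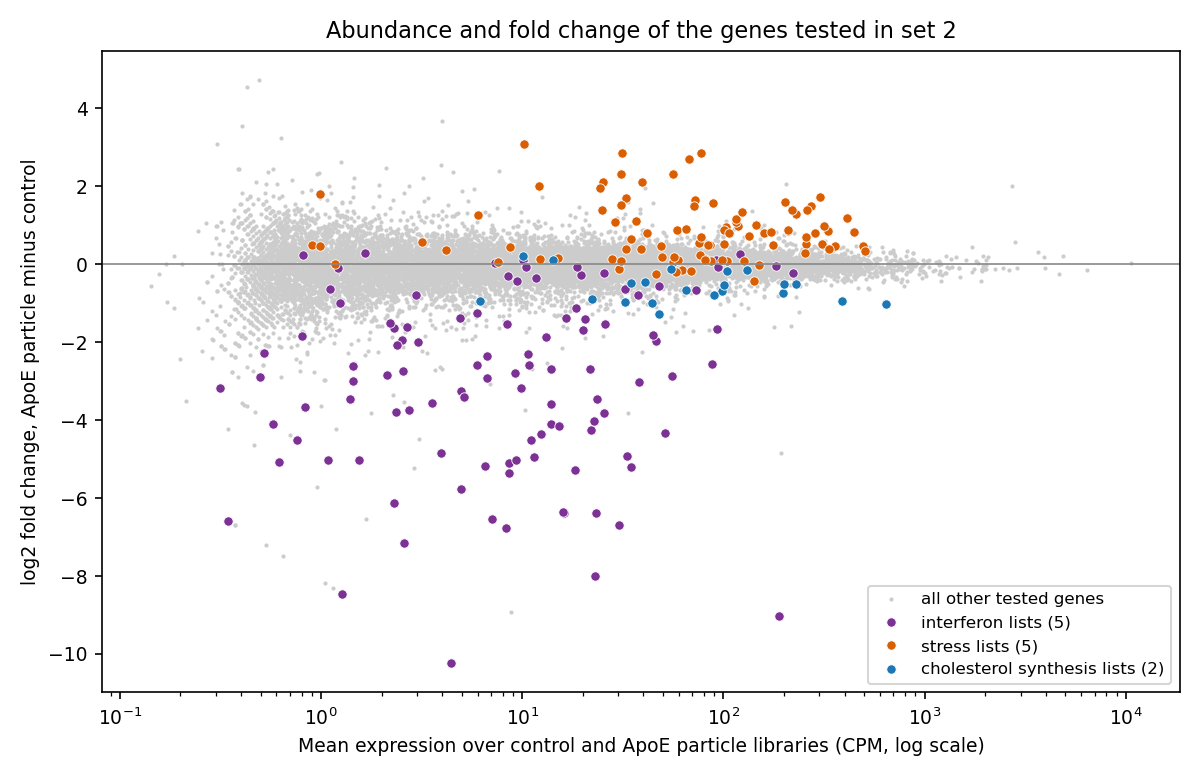
Log2 fold change of each tested gene (ApoE particle minus control, vertical axis) against its mean expression over the 4 libraries in CPM (log scale, horizontal axis), with members of 5 interferon lists in purple, 5 stress lists in orange, 2 cholesterol synthesis lists in blue and other genes in grey. The interferon genes run down to a log2 fold change of −10.24 (Oas1a, with 0 counts in both ApoE particle libraries, so that its fitted value depends on the prior count), the stress genes reach 3.08 and the cholesterol genes −1.29.

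The promoters of members of these groups were read first, since the elements named above can be looked for in them. RefSeq promoter windows of build GRCm38.p6, 250 bases before to 50 after each gene's start, were available for 11473 of 16379 tested gene symbols, and the 250 bases before the start were searched on both strands. The ISRE core was taken as GAAA, any 2 bases and GAAA again, which reads with TTTC in place of GAAA on the other strand. A gene was counted when any of its windows held a match, as 356 of the 11473 genes did (3.10%). Counted by single window, the share was 2.98% of all RefSeq windows. Among genes with a window, 48 of the 243 that fell at least 2-fold (19.8%) and 25 of the 52 that fell at least 8-fold (48.1%) had a match. By list, 8 of 9 interferon-inducible GTPases had a match, 13 of 32 antiviral effectors, 2 of 11 nucleic acid sensors and 3 of 17 MHC class I genes. Among genes that rose at least 2-fold 4.0% had a match, and among the cytosolic ribosomal proteins, of which 35 of 43 tested rose, 6 of 34 did (17.6%), the same share as among the MHC class I genes. The following stretches are shown because they carry the element in a signalling gene, 3 effectors and the MHC light chain, with the matching bases in capitals.
Stat2, chr10:128270248-128270315, plus strand: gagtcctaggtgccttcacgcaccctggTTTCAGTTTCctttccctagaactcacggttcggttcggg
Ifit1, chr19:34640755-34640824, plus strand: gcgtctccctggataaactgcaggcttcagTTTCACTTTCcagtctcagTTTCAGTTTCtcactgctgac
Bst2, chr8:71537563-71537632, minus strand: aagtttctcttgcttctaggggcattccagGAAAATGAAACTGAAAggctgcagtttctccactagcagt
Gbp7, chr3:142530253-142530322, plus strand: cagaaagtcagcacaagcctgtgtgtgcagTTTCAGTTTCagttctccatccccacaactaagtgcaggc
B2m, chr2:122147518-122147587, plus strand: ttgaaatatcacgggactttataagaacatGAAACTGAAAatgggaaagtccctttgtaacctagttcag
Ifit1 held the element more than once, and in Bst2 the overlapping matches form 1 longer run. A match is a stretch of letters, not a measured binding site.

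The element through which ATF4 and its partners act was spelled TGATGNAA. It occurred in 2.41% of the tested genes with a window and in 3.45% of all single RefSeq windows. Among genes that rose at least 2-fold, 12 of 100 had a match (12%), against 3.29% of those that fell at least 2-fold. It was found in 3 of 12 cytosolic tRNA synthetases, 4 of 18 ATF4 branch regulators and 3 of 14 genes of amino acid and one-carbon synthesis. In these lists the members called as rises that had a match were Aars, Gars, Tars, Chac1, Vldlr, Asns and Pycr1. The other matches lay in members that were not called. The amino acid transporters had it in 1 of 10 genes, which was not among those called. The antiviral effectors, a list that mostly fell, had it in 3 of 32 (9.38%). The longer element of endoplasmic reticulum chaperones was CCAAT and CCACG with 9 bases between them. It was rare, at 0.166% of the tested genes with a window, and occurred in 9 of 20 genes of the chaperone list (45.0%). The sterol response element, spelled TCACNCCAC, was in 1.24% of the tested genes with a window. It was in 1 of 6 genes of early cholesterol synthesis and in 0 of 10 genes from lanosterol onwards. One or more examples of each are shown with the match in capitals, since these genes return below with their values.
Chac1, chr2:119351019-119351086, plus strand: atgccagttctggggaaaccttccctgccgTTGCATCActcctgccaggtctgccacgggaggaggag
Pycr1, chr11:120643814-120643881, minus strand: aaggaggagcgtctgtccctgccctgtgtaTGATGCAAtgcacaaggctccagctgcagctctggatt
Gars, chr6:55037941-55038000, plus strand: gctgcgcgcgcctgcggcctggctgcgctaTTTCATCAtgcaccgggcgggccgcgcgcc
Hsp90b1, chr10:86705608-86705686, minus strand: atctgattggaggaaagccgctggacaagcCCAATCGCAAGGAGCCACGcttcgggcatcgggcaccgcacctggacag
Calr, chr8:84847045-84847123, minus strand: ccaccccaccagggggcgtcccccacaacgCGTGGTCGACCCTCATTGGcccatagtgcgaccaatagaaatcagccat
Hmgcs1, chr13:119690184-119690252, plus strand: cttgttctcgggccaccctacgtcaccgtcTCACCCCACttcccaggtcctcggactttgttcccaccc
Windows were of equal length, but genes with several windows had more sequence searched. Shares by list, here and for the ISRE, take all tested members with a window, called or not. The shares are descriptions and were not tested.

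Among the genes that carry the interferon signal, 7 of 16 tested members fell with the ApoE particle and 1 rose. The feedback inhibitor Socs1 and the factor Irf2 had lower values that did not pass the test (−0.79 ± 0.29 and −0.43 ± 0.16, adjusted p = 0.0520 and 0.0645). Irf9 (chromosome 14, 55603571 to 55610030, plus strand of mm10), which gives the STAT complex its DNA specificity, stood at 101 and 95.4 CPM in the controls, 14.4 and 12.4 CPM with the ApoE particle and 87.0 and 88.6 CPM with the reconstituted particle. The ApoE particle libraries lay far below the other 4, without overlap, and the log2 fold change against control was −2.87 ± 0.08 (± SE, adjusted p = 4.50e-18). Irf7, the factor that amplifies interferon production, was at 30.8 and 32.8 CPM in the controls, 0.355 and 0.390 CPM with the ApoE particle and 34.9 and 29.6 CPM with the reconstituted particle. Its ApoE particle libraries held 6 and 7 counts against 543 and 564 in the controls (−6.39 ± 0.21, adjusted p = 4.66e-17). Usp18, an isopeptidase that limits signalling at the receptor, was at 43.9 and 47.9 CPM in the controls and 0.296 and 0.780 CPM with the ApoE particle, and Stat2 at 153 and 148 CPM in the controls and 26.6 and 24.3 CPM with the ApoE particle.

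The receptor chains gave no call. Ifnar1, a chain of the type I interferon receptor, was at 93.3 and 83.2 CPM in the controls and 95.7 and 96.5 CPM with the ApoE particle (0.12 ± 0.07, adjusted p = 0.193), and Ifnar2, Ifngr1 and Ifngr2, the other receptor chains, did not pass the test either. The kinases moved little: Jak2 rose from 109 and 112 to 134 and 131 CPM (0.26 ± 0.06, adjusted p = 0.00247), Jak1 fell by 0.22 on the log2 scale, and Tyk2 was not called. Irf3, which is present before any interferon acts, was not called. The 10 interferon genes of the list were not analysed here, so that the ligand itself has no value.

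Of 15 tested sensors of foreign nucleic acid, 10 fell and 0 rose, with a median log2 fold change of −2.06. Eif2ak2, the double-stranded RNA kinase PKR that also phosphorylates eIF2-alpha, stood at 69.5 and 65.8 CPM in the controls, 8.51 and 8.30 CPM with the ApoE particle and 60.5 and 61.2 CPM with the reconstituted particle. The ApoE particle libraries did not overlap the others (log2 fold change −3.01 ± 0.09, adjusted p = 1.87e-17). Ifih1, the cytosolic RNA sensor MDA5, was at 23.8 and 23.7 CPM in the controls, 1.30 and 1.00 CPM with the ApoE particle and 25.3 and 21.2 CPM with the reconstituted particle, and Ddx58, its relative RIG-I, at 41.8 and 44.0 CPM in the controls and 3.84 and 4.01 CPM with the ApoE particle (−4.36 ± 0.19 and −3.45 ± 0.13). Trim25, the ligase that activates RIG-I, fell by 2.69 on the log2 scale, Tlr3, the endosomal sensor of double-stranded RNA, by 1.53, and Ifi203, of a family of DNA-binding proteins, by 2.74. In contrast, Adar, the RNA-editing enzyme, was at 179 and 192 CPM in the controls and 179.6 and 183 CPM with the ApoE particle (−0.03 ± 0.05), and the adaptor Mavs, the DNA sensors Aim2 and cGAS (Mb21d1), and Samhd1, which degrades nucleotides, were not called.

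The antiviral effectors, the proteins that block viral entry, translation and replication, showed the deepest falls. Of 42 tested, 39 fell and 0 rose, with a median log2 fold change of −4.68, and the 3 that were not called were Isg20, Ifitm2 and Ifit1bl1. Summed over the list, the controls held 1142 and 1073 CPM, the ApoE particle libraries 87.6 and 96.4 CPM and the reconstituted libraries 1058 and 1036 CPM. Oasl2 (chromosome 5, 114896936 to 114912234, plus strand of mm10), a relative of the oligoadenylate synthetases, contributed the most of any single gene in the controls, at 375 and 379 CPM, and was at 0.650 and 0.780 CPM with the ApoE particle. Rtp4, an interferon-induced chaperone of receptors, stood at 30.2 and 32.6 CPM in the controls, 0.414 and 0.334 CPM with the ApoE particle and 28.5 and 28.5 CPM with the reconstituted particle. Its ApoE particle libraries did not overlap any other (−6.37 ± 0.20, adjusted p = 2.73e-17). Ifit3, which binds Ifit1 in the complex that holds back viral RNA, was at 40.0 and 31.3 CPM in the controls, 0.887 and 0.947 CPM with the ApoE particle and 36.7 and 33.1 CPM with the reconstituted particle (−5.27 ± 0.19). Bst2, the tether of budding virus whose promoter is shown above, was at 71.8 and 63.3 CPM in the controls, 1.36 and 2.28 CPM with the ApoE particle and 61.8 and 71.7 CPM with the reconstituted particle (−5.20 ± 0.16). Other members with a fall of similar depth were Rsad2 (viperin, −5.03 ± 0.24), Samd9l, a translation inhibitor (−4.16 ± 0.18), Parp14, an ADP-ribosyltransferase (−4.94 ± 0.21), and Trim30a (−4.51 ± 0.21). Ifitm3, which blocks the entry of enveloped virus, kept 4.85 and 6.79 CPM against 40.6 and 34.3 (−2.68 ± 0.14), and the smallest called fall was that of Cmpk2, a nucleotide kinase, from 48.1 and 47.2 to 26.2 and 28.6 CPM (−0.80 ± 0.09). In the same libraries, microglia markers were low throughout, 9 of 13 astrocyte markers fell and 1 rose (median −0.27), and 5 of 8 vessel, mural and fibroblast markers fell (median −0.96). The part of these cells in the interferon genes was not tested.

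Some of these genes reached the floor of the count. Mx2, a dynamin-like GTPase, had 180 and 161 counts in the 2 control libraries and 2 and 4 in the 2 ApoE particle libraries, and Oas1b had 270 and 220 in the controls and 1 and 4 with the ApoE particle. For Oas1a the controls held 307 counts and the ApoE particle libraries 0, which allows at most 3 counts over the pair and makes the gene at least 102-fold lower. Ifi47 had 178 counts in the controls and 1 with the ApoE particle, and the exact 95% counting interval of that ratio ran from 31.5 to 7057. The Ifit, Oas1, Gbp, H2 and Trim30 families hold some near-identical copies, whose reads the counting may have divided between members or left out. The value of such a copy is less certain than that of a gene without copies.

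**Figure D2:**
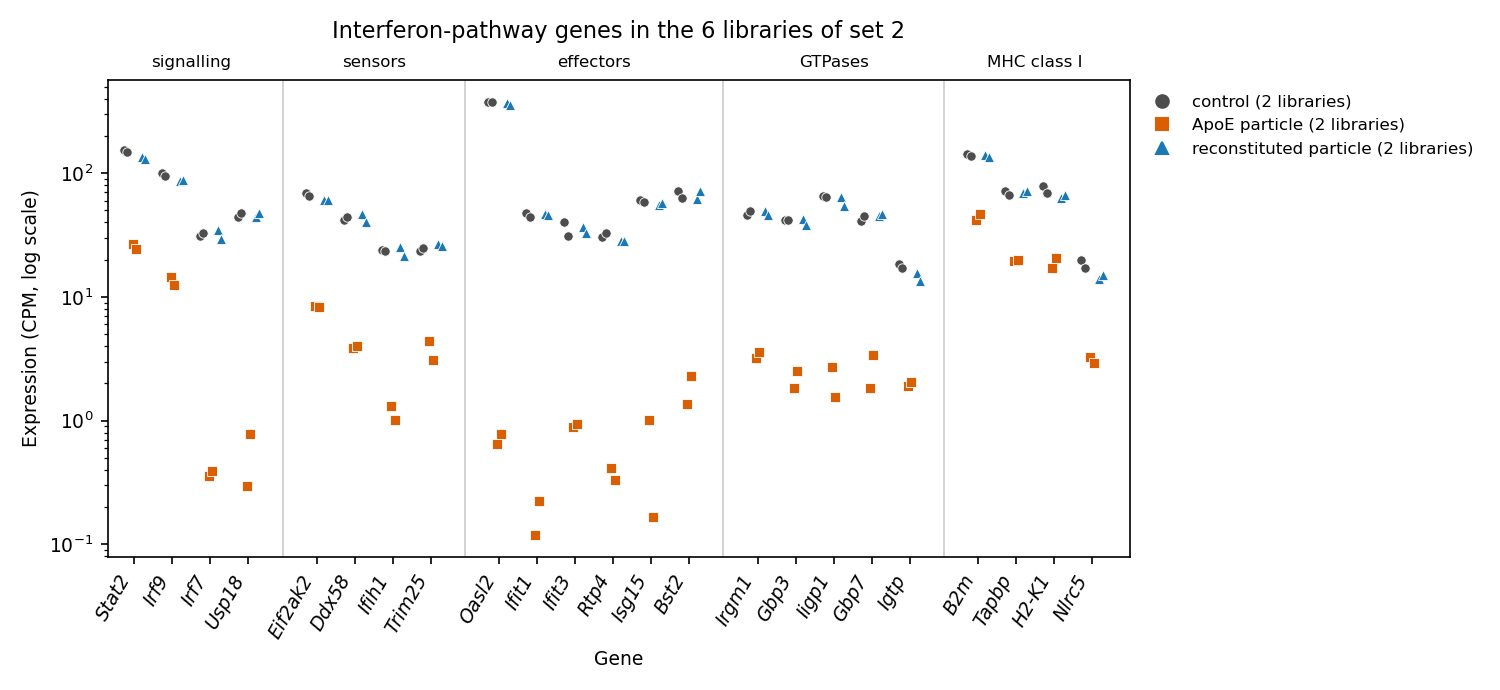
Expression in CPM (log scale, vertical axis) of 23 interferon-pathway genes, grouped by role along the horizontal axis, with 1 point for each of the 6 libraries by treatment. Control and reconstituted particle libraries lie close together, and both ApoE particle libraries lie below them for every gene drawn, from Ifit1 at 0.118 and 0.223 CPM to B2m at 41.5 and 47.2 CPM.

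All 13 tested interferon-inducible GTPases, large enzymes that attack the vacuoles of intracellular parasites, fell, with a median log2 fold change of −3.78. Irgm1, the regulator of the smaller family, was at 45.9 and 49.3 CPM in the controls, 3.19 and 3.56 CPM with the ApoE particle and 49.4 and 45.7 CPM with the reconstituted particle. There was no overlap between the ApoE particle libraries and the rest (−3.81 ± 0.12, adjusted p = 3.80e-17). Gbp3 stood at 41.9 and 41.5 CPM in the controls and 1.83 and 2.51 CPM with the ApoE particle, Iigp1 at 64.9 and 63.7 CPM in the controls and 2.72 and 1.56 CPM with the ApoE particle, and Gbp7 at 40.9 and 45.2 CPM in the controls and 1.83 and 3.40 CPM with the ApoE particle (−4.25 ± 0.14, −4.92 ± 0.15 and −4.03 ± 0.16). Even the least changed member, Gbp2, fell by 2.34 on the log2 scale.

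MHC class I genes, through which cells display peptides to T cells, kept more of their expression. Of 22 tested, 19 fell and 0 rose, and the median log2 fold change was −1.74. B2m, the light chain shared by all class I molecules, stood at 144 and 139 CPM in the controls, 41.5 and 47.2 CPM with the ApoE particle and 141 and 135 CPM with the reconstituted particle. With the ApoE particle both values were lowest, without overlap, and kept 31.4% of the control mean (−1.67 ± 0.07, adjusted p = 2.96e-15). H2-K1, a classical heavy chain, was at 79.3 and 68.9 CPM in the controls and 17.1 and 20.6 CPM with the ApoE particle and H2-D1, the other, at 91.6 and 87.9 CPM in the controls and 56.9 and 56.0 CPM with the ApoE particle (−1.97 ± 0.09 and −0.67 ± 0.07). The peptide loading machinery followed, with Tapbp (tapasin) at −1.81 ± 0.08, the transporters Tap1 and Tap2 at −1.54 ± 0.11 and −2.005 ± 0.28, and Nlrc5, the transactivator of class I genes, at −2.59 ± 0.17. The members without a call were Psmb10, H2-M3 and H2-T24.

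Inflammatory genes outside the interferon lists also fell in part. In the STAT3 pathway, which cytokines of the interleukin-6 family use, 13 of 18 fell and 1 rose. Stat3 itself was at 164 and 157 CPM in the controls, 62.7 and 66.7 CPM with the ApoE particle and 153 and 159 CPM with the reconstituted particle, with the ApoE particle libraries apart and lowest (−1.31 ± 0.06, adjusted p = 3.17e-14). A2m, an acute-phase protease inhibitor, was at 129.7 and 129.7 CPM in the controls and 35.4 and 45.3 CPM with the ApoE particle (−1.68 ± 0.09), and Osmr, the oncostatin M receptor, fell by 1.22. Of 8 complement genes 4 fell, including C4b (−1.89 ± 0.16), and of 11 NF-kB targets 3 fell, namely Vcam1 (−1.36 ± 0.09), Csf1 (−1.03 ± 0.11) and Icam1 (−0.92 ± 0.17), with 0 rises. Astrocytes also express A2m, C4b and Vcam1, and astrocyte markers were lower in the same libraries (9 of 13 tested fell and 1 rose). Their part in these falls was not tested. Of 7 chemokines 4 fell and 1 rose, with 2 falls by DESeq2 or without ApoE particle library 1.

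Regulators and targets of the ATF4 branch of the integrated stress response rose: 16 of 20 tested passed the test upwards and 0 downwards, with a median log2 fold change of 1.18. Atf4 (chromosome 15, 80255184 to 80257540, plus strand of mm10) stood at 124 and 143 CPM in the controls, 335 and 313 CPM with the ApoE particle and 136 and 110.5 CPM with the reconstituted particle. With the ApoE particle both values were the highest, without overlap (1.28 ± 0.12, adjusted p = 9.75e-04). Ddit3, the transcription factor CHOP, was at 10.8 and 10.1 CPM in the controls, 55.5 and 48.0 CPM with the ApoE particle and 10.3 and 9.09 CPM with the reconstituted particle, which again separated the ApoE particle libraries (2.31 ± 0.12, adjusted p = 1.49e-13). Sesn2, an inhibitor of mTORC1 that senses leucine, was at 42.3 and 47.0 CPM in the controls, 136 and 129 CPM with the ApoE particle and 41.6 and 37.1 CPM with the reconstituted particle (1.57 ± 0.07, adjusted p = 3.93e-14). The pseudokinase Trib3 was at 1.25 and 3.08 CPM in the controls and 20.9 and 15.8 CPM with the ApoE particle (3.08 ± 0.41, adjusted p = 0.00231). Eif4ebp1, a repressor of translation initiation, was at 9.41 and 9.41 CPM in the controls and 45.5 and 36.3 CPM with the ApoE particle (2.12 ± 0.13), and Ppp1r15a, the phosphatase subunit that reverses eIF2-alpha phosphorylation, at 23.02 and 23.3 CPM in the controls and 51.8 and 48.1 CPM with the ApoE particle (1.11 ± 0.11). Of the 4 eIF2-alpha kinases, Eif2ak3 (PERK) rose slightly (0.38 ± 0.09), Eif2ak2 fell with the interferon genes, and Eif2ak1 (HRI) and Eif2ak4 (GCN2) were not called. Atf3 and Nupr1 were not called either.

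In amino acid and one-carbon synthesis, 11 of 17 genes rose and 0 fell. Phgdh, the first enzyme of serine synthesis, was at 73.3 and 66.6 CPM in the controls, 179 and 176 CPM with the ApoE particle and 65.7 and 68.9 CPM with the reconstituted particle. The groups were separate (1.34 ± 0.06, adjusted p = 4.71e-14), as they were for Psph, the last enzyme of the same route (15.7 and 15.1 to 49.1 and 51.7 CPM, 1.71 ± 0.10). Asns, asparagine synthetase, rose from 135 and 151 to 416 and 389 CPM (1.49 ± 0.06), and Pycr1, which makes proline in mitochondria, from 10.9 and 9.12 to 40.0 and 37.4 CPM (1.95 ± 0.12). One-carbon metabolism showed a split by compartment. The mitochondrial enzymes Mthfd2, Shmt2 and Aldh1l2 rose (2.33 ± 0.09, 1.502 ± 0.08 and 1.09 ± 0.06), while the cytosolic counterparts Shmt1 and Mthfd1 were at 0.05 ± 0.19 and 0.18 ± 0.08 (adjusted p = 0.883 and 0.144).

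Of 14 amino acid transporters 7 rose and 1 fell. Slc7a3, a carrier of cationic amino acids, stood at 17.3 and 18.7 CPM in the controls, 128 and 105 CPM with the ApoE particle and 18.0 and 15.1 CPM with the reconstituted particle. No other transporter of the list changed as much (2.70 ± 0.10, adjusted p = 4.98e-13). Both subunits of the large neutral amino acid carrier rose, the light chain Slc7a5 from 134 and 144 to 498 and 428 CPM and the heavy chain Slc3a2 from 137 and 148 to 401 and 354 CPM (1.74 ± 0.08 and 1.41 ± 0.06). Slc7a1, a further cationic carrier, rose by 1.59, and Slc6a9, the glycine transporter, by 1.52. Slc7a11, the cystine carrier, was at 0.07 ± 0.10 (adjusted p = 0.666), and Slc7a6 fell by 0.26.

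Aminoacyl-tRNA synthetases, which load amino acids onto their tRNAs, divided by compartment as well. Of the 20 cytosolic enzymes 13 rose and 0 fell, with a median of 0.71, and of the 17 mitochondrial enzymes 0 rose and 1 fell, with a median of −0.02. Aars, for alanine, was at 249 and 258 CPM in the controls, 595 and 551 CPM with the ApoE particle and 258 and 235 CPM with the reconstituted particle (1.18 ± 0.05, adjusted p = 4.66e-14). Here too the ApoE particle pair was highest, without overlap. Nars, for asparagine, rose by 0.98, Lars, for leucine, by 1.00, Mars, for methionine, by 0.97, and Gars, whose promoter is shown above, by 0.85. Among the 7 without a call was Kars, for lysine, at 149.8 and 151 CPM in the controls and 149 and 149.98 CPM with the ApoE particle (−0.01 ± 0.05). Kars serves both cytosol and mitochondria from the same gene, as Gars does.

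Chaperones of the endoplasmic reticulum and genes of the unfolded protein response rose in 19 of 23 cases and fell in 0 (median 0.51). Hsp90b1 (GRP94) was at 148 and 150.4 CPM in the controls, 267 and 271 CPM with the ApoE particle and 161 and 148 CPM with the reconstituted particle. No other library reached the level of the ApoE particle pair (0.85 ± 0.05, adjusted p = 1.06e-11). Sdf2l1, a chaperone cofactor, changed from 4.88 and 4.77 to 20.5 and 18.3 CPM (2.01 ± 0.16), Creld2 from 18.2 and 18.8 to 39.3 and 39.7 CPM (1.09 ± 0.10) and Manf, a secreted protein of the stressed reticulum, from 46.2 and 44.6 to 85.8 and 84.5 CPM (0.91 ± 0.07). Calr, the lectin chaperone calreticulin, rose by 0.48, and Xbp1, the transcription factor spliced by IRE1, by 0.80. Syvn1, Ern1 (IRE1 itself), Derl3 and Edem1 were not called. Heat shock genes of the cytosol did not move as a group (2 of 12 rose, 1 fell), and the largest rise there was Hspa1b, from 6.18 and 7.55 to 11.9 and 11.5 CPM. The mitochondrial chaperone Hspa9 rose by 0.59.

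**Figure D3:**
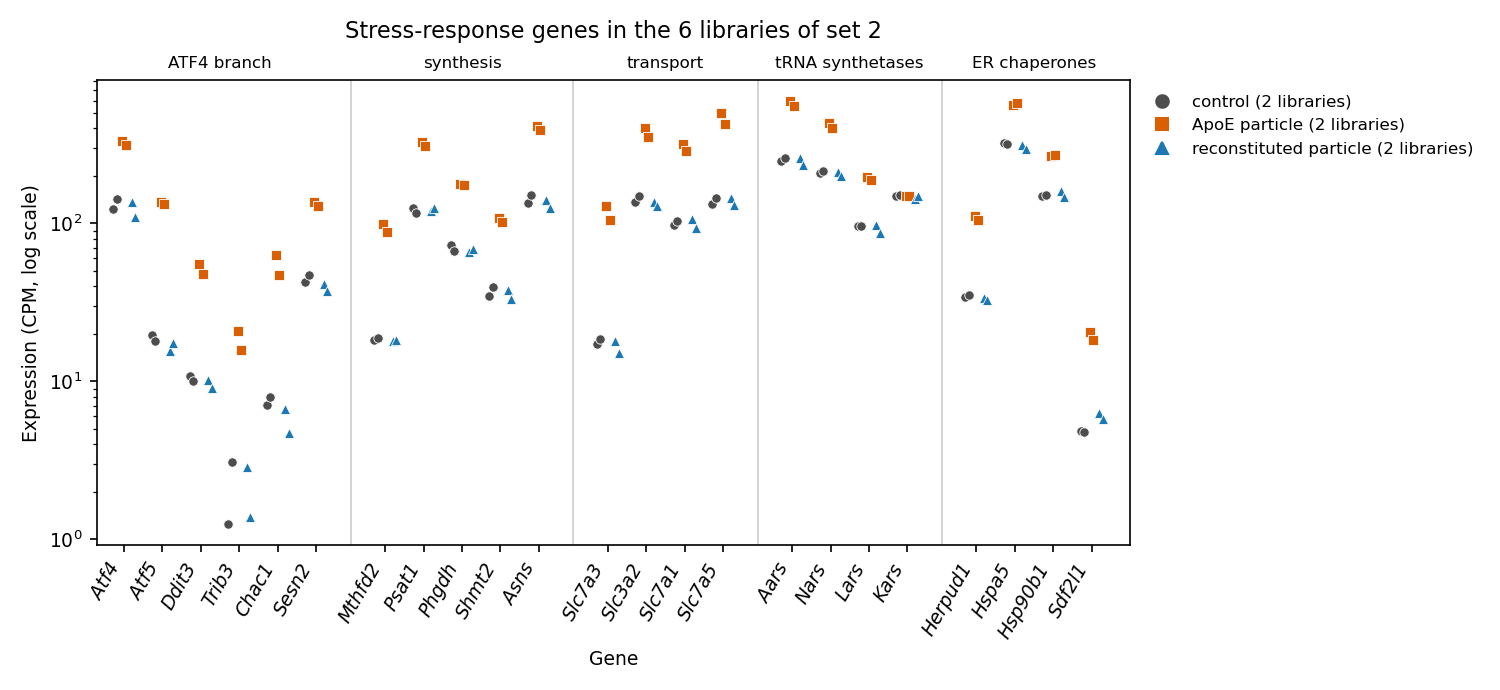
Expression in CPM (log scale, vertical axis) of 23 stress-response genes by role (horizontal axis), with 1 point for each of the 6 libraries by treatment. Both ApoE particle libraries lie above the 4 others for every gene drawn except Kars, whose 6 libraries lie between 143 and 151 CPM.

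Ribosomal protein genes rose slightly and together: 35 of 43 passed the test, all upwards, with a median log2 fold change of 0.25. Their sum was 10880 and 10520 CPM in the controls, 12630 and 12590 CPM with the ApoE particle and 10320 and 11030 CPM with the reconstituted particle. Rpl10, of the large subunit, changed most, from 209 and 206 to 326 and 306 CPM (0.61 ± 0.05). Transcripts of the mitochondrial genome rose in 5 of 12 cases (3 without control library 2), and nuclear respiratory chain genes in 6 of 32 (2 with DESeq2 or without control library 1).

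Cholesterol synthesis fell. Of 10 genes of the route to squalene epoxide 7 fell and 0 rose (median −0.72), and of 11 genes from lanosterol onwards 7 fell and 0 rose (median −0.67). Hmgcs1, an early enzyme of the route whose promoter is shown above, stood at 862 and 853 CPM in the controls, 465 and 389.7 CPM with the ApoE particle and 924 and 883 CPM with the reconstituted particle. Values with the ApoE particle were the lowest, without overlap (−1.01 ± 0.07, adjusted p = 2.38e-05). Dhcr7, a late enzyme of the pathway, was at 78.3 and 82.0 CPM in the controls, 54.1 and 47.0 CPM with the ApoE particle and 76.0 and 86.0 CPM with the reconstituted particle (−0.67 ± 0.08, adjusted p = 1.10e-06), with the same separation, and Fdft1, which makes squalene, fell by 0.51. Sqle and Lss, the next enzymes, had lower values that did not pass the test (−0.51 ± 0.15 and −0.53 ± 0.24, adjusted p = 0.110 and 0.254). Of the sterol-sensing genes 5 of 12 fell. Srebf2, which encodes SREBP2, was at 401 and 411 CPM in the controls, 290.0 and 269 CPM with the ApoE particle and 399.8 and 429 CPM with the reconstituted particle (−0.54 ± 0.05, adjusted p = 7.70e-09), whereas Insig1, the sterol-responsive anchor of SREBP, was at 89.7 and 99.7 CPM in the controls and 87.4 and 91.5 CPM with the ApoE particle (−0.08 ± 0.07, adjusted p = 0.450).

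On the side of export and uptake, 6 of 11 tested genes of the list for LXR, the oxysterol receptor, and cholesterol export fell and 0 rose. The falls numbered 3 with DESeq2. This list is not made of LXR targets alone, and Nr1h2, which encodes an LXR, and the enzyme gene Cyp46a1 were among the falls. Abca1, the pump that loads cholesterol onto apolipoproteins, was at 333 and 328 CPM in the controls, 132 and 153 CPM with the ApoE particle and 349 and 334 CPM with the reconstituted particle. Its ApoE particle libraries were the lowest (−1.22 ± 0.06, adjusted p = 3.79e-12). Apoe was at 685 and 658 CPM in the controls, 589 and 685 CPM with the ApoE particle and 595 and 660.1 CPM with the reconstituted particle, with overlapping groups and no call (−0.08 ± 0.08, adjusted p = 0.559). Among 13 tested genes of the ApoE receptor families, with Lrpap1 included, 6 fell and 1 rose. The abundant Lrp1 fell from 791 and 809 to 650.2 and 634 CPM (−0.32 ± 0.04). In fatty acid synthesis 6 of 16 fell and 1 rose, including Fasn, fatty acid synthase (−0.44 ± 0.04), and Acly, which makes cytosolic acetyl-CoA (−0.31 ± 0.05). Acetyl-CoA is also the substrate of histone acetyltransferases, of which 4 of 14 fell and 0 rose (1 fell without control library 2), the largest change being that of Ncoa2 (−0.23 ± 0.06). Of 15 histone deacetylases 2 rose and 3 fell, against 10% and 12.1% of all genes tested.

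**Figure D4:**
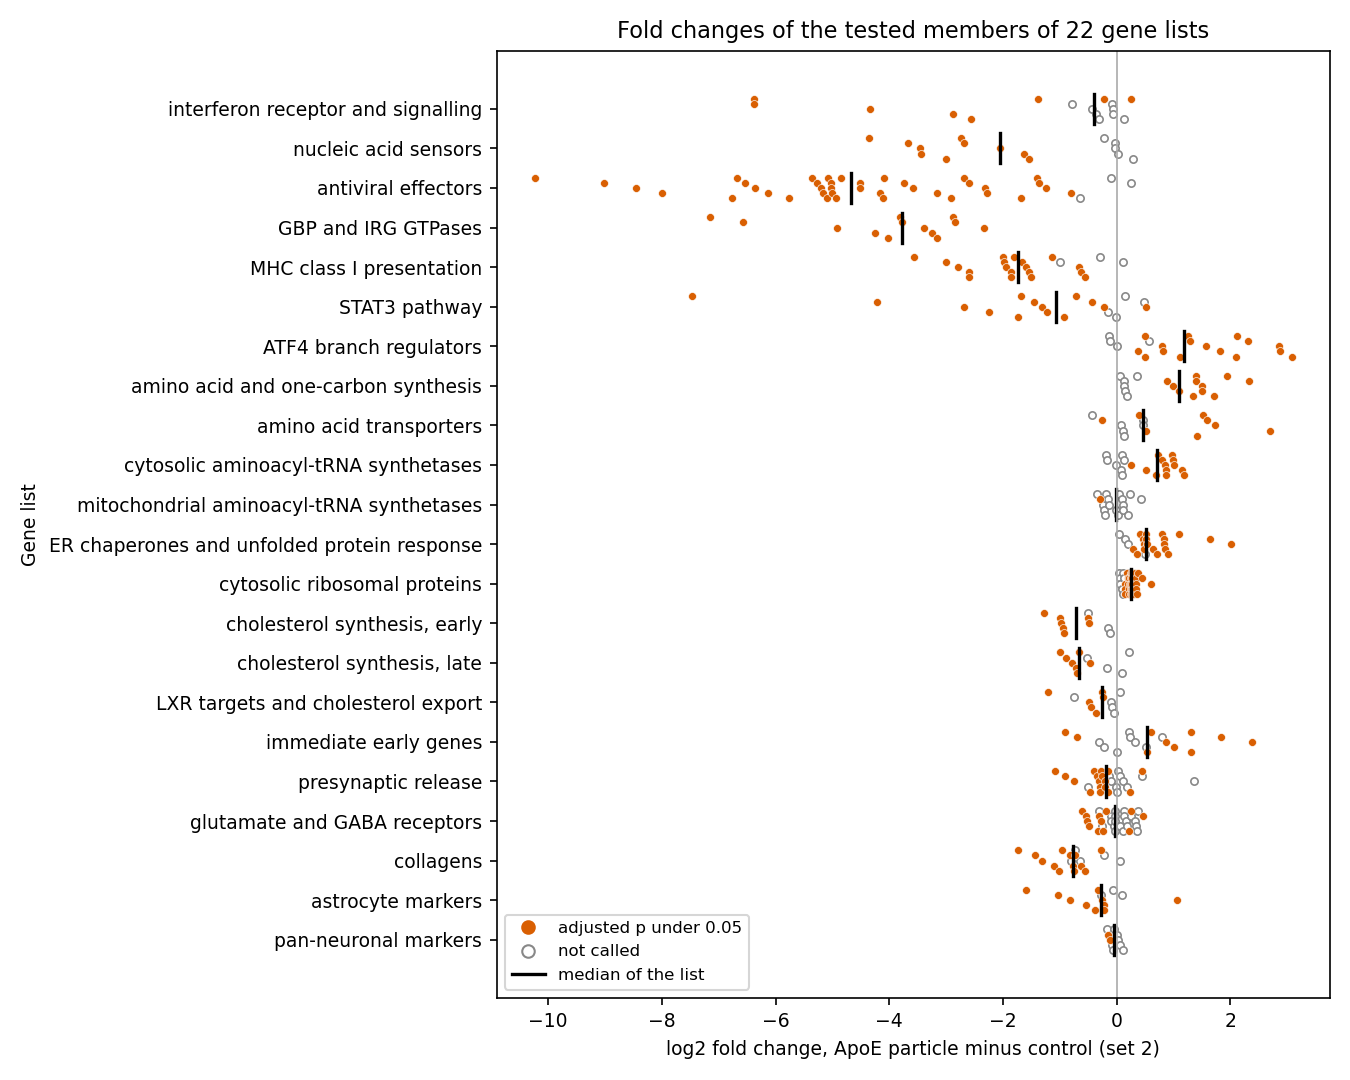
Log2 fold changes of the tested members (points) of 22 gene lists (rows), ApoE particle minus control, with called genes in orange, others open and a black bar at each list's median. The medians run from −4.68 for the antiviral effectors to 1.18 for the ATF4 branch, and those of the pan-neuronal and receptor lists lie at −0.05 and −0.03.

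Genes switched on by neuronal activity gave a mixed picture. Of 18 immediate early genes 8 rose and 2 fell, although only 4 rose without control library 1. Fosb, an AP-1 subunit, was at 1.76 and 3.14 CPM in the controls, 14.7 and 10.9 CPM with the ApoE particle and 2.46 and 1.43 CPM with the reconstituted particle. Those are low levels, yet the groups were separate (2.38 ± 0.27, adjusted p = 2.19e-06). Npas4, the activity-dependent factor of inhibitory synapse formation, was at 11.9 and 16.5 CPM in the controls and 32.9 and 24.6 CPM with the ApoE particle (1.016 ± 0.16), and Jun and Egr3 went the other way (−0.91 ± 0.06 and −0.69 ± 0.15). Of 16 late activity-induced genes 5 rose and 2 fell (1 rose without control library 1). Crh, the stress peptide corticotropin-releasing hormone, was at 0.624 and 0.639 CPM in the controls, 3.90 and 3.23 CPM with the ApoE particle and 0.430 and 0.120 CPM with the reconstituted particle (2.48 ± 0.42, adjusted p = 1.23e-04). Vegfa, a target of both ATF4 and hypoxia, rose from 56.8 and 69.8 to 135 and 117 CPM (0.99 ± 0.15).

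Pan-neuronal markers changed little, while the synaptic lists held more falls than rises, against 12.1% falls and 10% rises over all genes tested. Only 2 of 10 pan-neuronal markers fell, and Tubb3, neuronal tubulin, was at 1959.7 and 1993 CPM in the controls and 1893 and 1935 CPM with the ApoE particle. Among genes of presynaptic release 15 of 28 fell and 2 rose (median −0.18). Slc17a7, the vesicular glutamate transporter, was at 62.5 and 62.8 CPM in the controls, 28.9 and 30.02 CPM with the ApoE particle and 63.2 and 58.8 CPM with the reconstituted particle. Its ApoE particle libraries did not overlap the others (−1.09 ± 0.08), and Sv2b, a vesicle protein, and Rph3a, which binds Rab3, fell by 0.90 and 0.74. Syt4, a synaptotagmin, rose by 0.45. Glutamate and GABA receptors had 9 falls and 3 rises among 32, with Grik3, a kainate receptor subunit, lower (−0.53 ± 0.07). The rises numbered 6 or 7 with library totals, without the count filter or without some of the libraries.

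Ion channels included several single changes. Kcnq3, a subunit of the M-current that restrains firing, was at 137 and 142 CPM in the controls, 74.7 and 69.6 CPM with the ApoE particle and 155 and 144 CPM with the reconstituted particle. No control or reconstituted library came as low (−0.95 ± 0.06, adjusted p = 3.15e-11). Of 28 potassium channels 8 fell and 4 rose (4 fell without control library 2), and of 26 sodium and calcium channels 10 fell and 3 rose, with Cacna1h, a T-type calcium channel, lower (−0.53 ± 0.06) and Cacng3, an AMPA receptor auxiliary subunit, higher (0.68 ± 0.09). Nefm, the medium neurofilament chain, was at 127 and 139.8 CPM in the controls and 75.9 and 72.0 CPM with the ApoE particle (−0.85 ± 0.07), and 9 of 19 axon and cytoskeleton genes fell. Of 12 markers of inhibitory neurons 5 fell (3 without control library 2) and 1 rose, with falls of Lhx6, a factor of interneurons from the medial ganglionic eminence (−0.98 ± 0.12), and the peptides Npy and Pnoc (−1.01 ± 0.10 and −1.13 ± 0.16).

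Most tested astrocyte markers and collagens were lower with the ApoE particle. Of 13 astrocyte markers 9 fell (median −0.27), and S100b, a calcium-binding protein, was the 1 that rose, from 1.36 and 0.872 to 2.42 and 2.28 CPM (1.07 ± 0.37, adjusted p = 0.0418). Gfap, the astrocyte filament, was at 331 and 321 CPM in the controls, 99.2 and 117 CPM with the ApoE particle and 304 and 303 CPM with the reconstituted particle. Both of its ApoE particle libraries were apart and lowest (−1.59 ± 0.06), and Aqp4, the water channel, and Aldh1l1, a folate enzyme, fell by 1.03 and 0.81. Kcnj10, the potassium channel of astrocytes, fell by 1.24. Of 18 collagens 13 fell and 0 rose (8 fell without control library 1), and their sum was 583 and 467 CPM in the controls, 277 and 324 CPM with the ApoE particle and 454 and 509 CPM with the reconstituted particle. Fn1, fibronectin, had no list of its own and was chosen after its values were seen, at 299 and 239.8 CPM in the controls, 77.3 and 98.6 CPM with the ApoE particle and 241 and 254 CPM with the reconstituted particle (−1.61 ± 0.19, adjusted p = 0.0137). Of 8 vessel, mural and fibroblast markers 5 fell (3 when any 1 of the 4 libraries was left out), and of 19 cell cycle genes 10 fell and 2 rose (5 to 6 falls with DESeq2, without control library 1 or without ApoE particle library 1). Neither of the 2 testable microglia markers was called.

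Other lists held more rises than falls. Of 10 glucocorticoid targets 7 rose and 0 fell, with Tsc22d3 (GILZ), the anti-inflammatory leucine zipper, at 0.58 ± 0.11. Of 16 clock genes 6 rose and 1 fell, including the repressors Per1 (0.63 ± 0.09) and Cry1 (0.66 ± 0.10) and the circadian repressor Ciart (1.69 ± 0.29). Bbc3 (PUMA), a p53 target that promotes apoptosis, rose from 27.4 and 28.9 to 60.02 and 44.2 CPM (0.89 ± 0.12), 1 of 5 risers among 12 p53 targets (3 without ApoE particle library 2). Lysosome and autophagy genes, in contrast, had 0 rises and 2 falls among 19, against 12.1% falls over all genes tested.

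The remaining lists moved less or in parts, and several of their counts lie near the 10% rises and 12.1% falls over all genes tested. Among glycolysis and hypoxia genes 7 of 23 fell and 1 rose, with the enzymes Aldoa, Eno1 and Pkm at −0.31 ± 0.05, −0.33 ± 0.04 and −0.23 ± 0.04, and Gapdh and Pgk1 not called. Among postsynaptic scaffold genes 9 of 21 fell, including Camk4, a nuclear calcium-dependent kinase (−0.38 ± 0.05), and 1 rose, Gphn, the scaffold of inhibitory synapses (0.28 ± 0.06). Of 18 neuropeptides 4 fell and 2 rose. Of 12 excitatory neuron markers 4 fell (2 with DESeq2, without either control library or without ApoE particle library 1), while Neurod2 and Tbr1, factors of cortical projection neurons, gave no call. Matrix proteases and their inhibitors fell in 7 of 19 cases, with Timp1, an inhibitor that STAT3 also induces, at −2.68 ± 0.39 and Adamts1 at −0.78 ± 0.07. Targets of BMP and TGF-beta fell in 4 of 14 cases, among them Id3, an inhibitor of bHLH factors (−1.32 ± 0.15). Notch and Wnt targets had 4 falls and 1 rise among 11 (1 to 2 falls under 5 of the alternatives), and Notch1 itself was at −0.74 ± 0.10. NRF2 targets, the oxidative stress genes, had 4 rises and 2 falls among 14, and oligodendrocyte lineage markers 0 rises and 2 falls among 8. None of the 5 tested markers of choroid plexus and ependyma was called.

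Of the 12 largest rises without overlap among genes with at least 5 CPM, predicted genes aside, 8 came from the stress, transport or activity lists and 4 from none. Cox6a2, the muscle form of a cytochrome oxidase subunit that is also found in some interneurons, stood at 0.737 and 0.407 CPM in the controls, 8.63 and 6.18 CPM with the ApoE particle and 0.492 and 0.359 CPM with the reconstituted particle. Those counts were 13 and 7 over the 2 controls and 146 and 111 over the 2 ApoE particle libraries, which did not overlap (3.67 ± 0.35, adjusted p = 2.42e-08). Avil, an actin-severing protein of sensory neurons, was at 1.25 and 1.05 CPM in the controls and 7.45 and 5.96 CPM with the ApoE particle, and P2rx3, the ATP-gated channel of nociceptors, at 1.47 and 1.45 CPM in the controls and 8.81 and 6.40 CPM with the ApoE particle. Klhl33 was at 0.850 and 1.39 CPM in the controls and 5.74 and 4.79 CPM with the ApoE particle (2.22 ± 0.33). Trim66, a chromatin reader, had higher levels, at 16.8 and 16.7 CPM in the controls, 70.1 and 60.1 CPM with the ApoE particle and 18.0 and 13.4 CPM with the reconstituted particle (1.96 ± 0.12, adjusted p = 1.47e-10).

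The reconstituted particle libraries were not separated from the controls. Against control, edgeR called 0 of 16388 genes (0.0%), 776 had an unadjusted p under 0.05, and DESeq2 also called 0. Without the count filter 8 genes were called, with the replicate number as a block 1, and with single libraries left out 1 to 4. Root-mean-square log2 distances between a control and a reconstituted library (0.364 to 0.376) were no larger than those between libraries of 1 group (0.365 to 0.376), while control and ApoE particle libraries were 0.570 to 0.620 apart. Between the reconstituted and the ApoE particle, 3319 genes were called (20.3%). This contrast and the main one share the ApoE particle libraries, so they are not independent. For the members named above, the values were close to those against control: Irf9 differed by 2.71 ± 0.08 on the log2 scale, B2m by 1.64 ± 0.07, Atf4 by −1.40 ± 0.12, Slc7a3 by −2.82 ± 0.11, Hmgcs1 by 1.08 ± 0.07 and Abca1 by 1.26 ± 0.06 (reconstituted minus ApoE particle). Whether the preparation of the 2 particles, their dose or their composition differs is not given in the labels.

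The same treatment name in the first set of libraries, 2 controls and 2 with an ApoE particle, gave other directions for several of these groups. A test of the difference itself, the change in the second set minus that in the first, called 5456 of 17272 genes (31.6%). In the first set 20.7% of the genes tested rose and 17.2% fell. Of the 358 genes that fell at least 2-fold in the second set, 195 rose in the first and 30 fell. Genes that rose in both sets made up 14.4% of the second set's rises and 7.06% of the first set's, and genes that fell in both 27.0% and 18.1%. The 2 sets use separate controls. Set and culture cannot be told apart, since no treatment links them other than the shared names.

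The controls of the sets differed in their interferon genes. Counts of the sets come from separate tables, so these levels are set side by side without a test. Irf7 was at 30.9 and 32.7 CPM of the library total in the controls of the second set, at 0.696 and 0.339 CPM in those of the first, and at 0.298 and 1.202 CPM in the controls of a further treatment of cultured neurons, labelled ADM. With 0.354 and 0.394 CPM, the ApoE particle libraries of the second set lay between the lowest and highest of those other controls. In the first set the ApoE particle libraries were at 1.33 and 0.643 CPM, a log2 fold change of 0.86 ± 0.44 that was not called, and the difference between the sets was −7.24 ± 0.58. The sum of the antiviral effectors was 164 and 127 CPM in the first set's controls and 249 and 301 CPM with its ApoE particle, 67.6 and 119 CPM in the ADM controls, and 87.6 and 96.4 CPM with the ApoE particle of the second set, all below the 1142 and 1073 CPM of the second set's controls. The test of the difference called a lower effect in the second set for all 13 GTPases and 37 antiviral effectors, and a higher one for 1 effector. Microglia markers summed to 121 and 102 CPM in the first set's controls and 400.5 and 395 CPM with its ApoE particle, far above the second set, and their part in the first set's values was not tested.

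The ATF4 branch and the sterol genes differed in other ways. Slc7a3 was at 18.7 and 17.8 CPM in the first set's controls, close to the 17.3 and 18.7 CPM of the second set's, but fell to 3.79 and 3.35 CPM with the ApoE particle there, a difference between sets of 5.06 ± 0.19. Of 20 cytosolic tRNA synthetases, 13 fell and 1 rose in the first set. Endoplasmic reticulum chaperones rose in both sets, with 14 rises and 2 falls among 23 in the first. Cholesterol synthesis fell in both and less in the second: the medians were −0.72 and −0.67 for its early and late parts, against −1.80 and −1.47 in the first set, and the test of the difference called 10 of 10 early and 7 of 11 late genes. Hmgcs1 fell by 1.84 in the first set and by 1.01 in the second (difference 0.84 ± 0.11), while Abca1 went in opposite directions (1.14 ± 0.07 in the first set). Glutamate and GABA receptors had a median of −0.03 in the second set and −0.57 in the first, where 23 of 32 fell, and 18 of the 32 differed between the sets by the test. Collagens had medians of −0.76 and 0.89, and 17 of 18 differed. Cell type markers moved in the first set as well. Pan-neuronal markers had a median of −0.48 there, with 8 of 10 falling, against −0.05 in the second. Astrocyte markers rose there in 9 of 13 cases and fell in 1, and cell cycle genes rose in 19 of 19. The part of cell composition in the differences between sets was not tested.

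**Figure D5:**
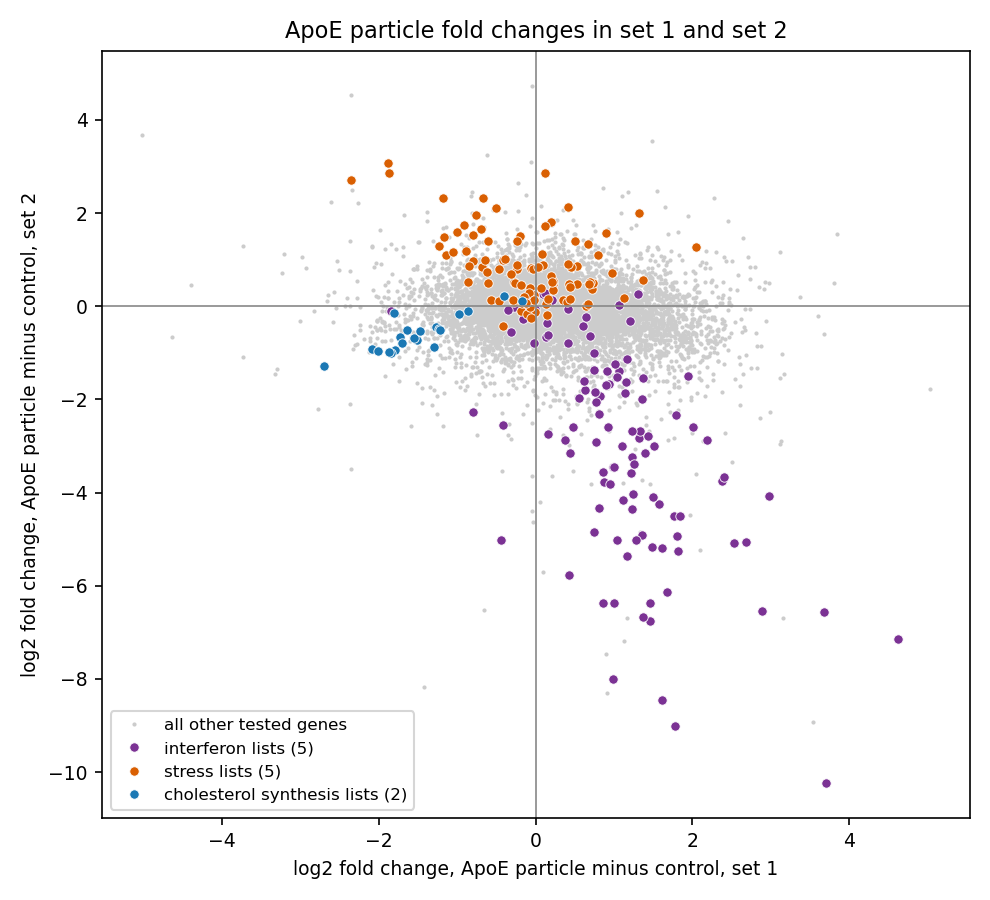
Log2 fold change of each gene tested in both sets, ApoE particle minus control, in the first set (horizontal axis) and the second (vertical axis), colored as in the plot of abundance. Most interferon genes lie at the lower right, above 0 in the first set and below 0 in the second, most stress genes lie above 0 in the second set on either side of 0 in the first, and most cholesterol genes lie at the lower left, below 0 in both.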

How the data were processed

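RNA of primary mouse neurons was sequenced. Read counts per gene, as deposited by the authors, had been made with HISAT2 2.1.0, Bowtie2 2.2.3 and HTSeq 0.6.0 on mm10, per the submitters' processing notes, which give no order or strand setting. Of 30984 rows, the 1489 without a value in the 4 columns compared were dropped, among them 14 whose gene symbols had been stored as dates, and 29495 were kept. Of the rows dropped, 12 had at least 20 counts over the 2 reconstituted libraries, all of them stored as dates. Most were septin genes, such as Sept3 with 13427 and 13465 counts there, and these genes are missing from the comparison. Counts of the 6 libraries of the second set entered 1 fit in edgeR 4.0.16 (R 4.3.3): filterByExpr, TMM scaling, the robust quasi-likelihood F test and Benjamini-Hochberg adjustment over 16388 genes with a threshold of 0.05. CPM is TMM-scaled, except for sums over lists and levels across sets, which use library totals. A second fit over both sets tested the difference between them. Standard errors come from the F statistic. The script recovered 44.1%, 85.5% and 98.5% of simulated log2 changes of 0.5, 1 and 2 among 16073 genes for control against ApoE particle, with 6 false calls. The simulation gave all genes and libraries the same spread. In the data, chi-square per degree of freedom within a pair was 9.66 for the ApoE particle, 3.99 for the controls and 3.76 for the reconstituted particle. Recovery in the data may therefore be lower.

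Named genes are the 12 largest non-overlapping changes in each direction with at least 5 CPM, predicted genes aside, up to 5 called members of each of 59 lists by lowest adjusted p (2 where none was called), the 6 largest each way in the other contrasts, and 11 fixed genes. Some genes that this rule names are not reported here. Other genes, chiefly list members, were chosen after their values were seen. The comparison, lists and rule were chosen with earlier results of these data known. Alternatives covered scaling, filters, DESeq2 1.42.0, a replicate block and leaving out libraries.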

Additional observations from a re-analysis of the deposited data

Results flagged for a closer look

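The effect of the ApoE particle differed between the second and the first set of libraries for 5456 genes by the interaction term (edgeR quasi-likelihood test with Benjamini-Hochberg adjustment), and for the genes below, each value being the log2 fold change in the second set minus that in the first. In the interferon response the difference was −2.15 ± 0.12 for Stat2, −3.24 ± 0.14 for Irf9 and −7.24 ± 0.58 for Irf7. Among its effectors it was −10.80 ± 0.22 for Oasl2, −8.98 ± 0.65 for Ifit1, −8.22 ± 0.70 for Ifi44, −9.43 ± 0.84 for Oas1b, −11.77 ± 1.76 for Ifi47 and −13.94 ± 1.04 for Oas1a. The last 2 had 1 and 0 counts in the ApoE particle libraries of the second set, so their fitted sizes depend on the prior count. Every one of these 9 genes fell in the second set, while in the first set Irf9 was at 0.38 ± 0.10, Oasl2 at 1.78 ± 0.17 and Stat2 at −0.41 ± 0.09.

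In the stress response the effect was higher in the second set by 2.52 ± 0.13 for Atf4, 2.98 ± 0.22 for Ddit3, 4.73 ± 0.26 for Chac1, 4.96 ± 0.63 for Trib3 and 5.06 ± 0.19 for Slc7a3. Chac1, which degrades glutathione, was at 13.1 and 12.5 CPM in the first set's controls and 3.05 and 3.97 CPM with its ApoE particle, and at 7.09 and 8.02 CPM in the controls and 62.7 and 47.3 CPM with the ApoE particle in the second. Outside the lists, the difference was 8.70 ± 0.83 for Cox6a2, 4.83 ± 0.82 for Klhl33 and 3.64 ± 0.23 for Trim66.

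Among lipid genes, Srebf2, which encodes SREBP2, fell less in the second set, with a difference of 0.37 ± 0.10. Abca1 and Apoe had a lower effect in the second set, by −2.35 ± 0.11 and −0.87 ± 0.20. The sets differ in their controls as well as in their treated libraries, and which of these the differences come from was not tested.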

How the results depend on the processing

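Among the named genes, no called direction reversed under the alternatives run, though 28 lost their call with DESeq2 and 14 with the replicate block. More of them lost it without control library 1, control library 2 or ApoE particle library 1 than with DESeq2. Directions of the other called genes were not compared. Of 3617 genes called between ApoE particle and control, DESeq2 called 2310 and 2358 in all, and 2297 to 3836 were called with single libraries left out, fewest without control library 1. Other settings gave 3621 (DESeq2 size factors in edgeR), 3670 (library totals), 3798 (no filter), 3623 (at least 1 CPM in 2 libraries) and 3767 (control and ApoE particle libraries only). At least 2-fold changes numbered 408 to 568 with single libraries left out, against 505. Between reconstituted and ApoE particle DESeq2 called 2186 genes and the fits with a library left out 2249 to 3314, against 3319, and for the difference between sets the latter gave 3952 to 6064, against 5456. Where 1 library of a group remained, it is assumed to vary like the other groups. No scaling moved the median of all genes by more than the −0.0102 of DESeq2. Why these counts moved was not tested.

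The shared replicate numbers showed no pairing of the libraries over all genes tested: deviations of same-numbered libraries correlated at −0.075, −0.024 and 0.042 between the 3 pairs of groups. All genes counted equally in this check, so a pairing limited to some genes could be missed. With the replicate number as a block, 3248 genes were called against control, 481 of them at least 2-fold, 2974 between the particles and 5400 between sets.

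Depth limits the low end. Of genes below 1 CPM 4.63% were called, and of those at 100 CPM or more 39.9%.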

Other observations

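Several strong changes fell outside every list and were picked out after their values were seen. Rnf213, a giant E3 ligase known as the moyamoya disease gene and as a target of interferon, was at 375 and 369 CPM in the controls, 11.5 and 14.3 CPM with the ApoE particle and 361 and 359 CPM with the reconstituted particle. Its ApoE particle libraries did not overlap the others (−4.84 ± 0.07, adjusted p = 2.25e-23, edgeR quasi-likelihood test with Benjamini-Hochberg adjustment). Lgals3bp, a secreted glycoprotein that binds galectins, was at 63.8 and 62.1 CPM in the controls, 3.84 and 5.01 CPM with the ApoE particle and 54.8 and 68.9 CPM with the reconstituted particle (−3.82 ± 0.14). Gm4951, a predicted GTPase gene, was at 19.2 and 15.9 CPM in the controls and 0 and 0.0557 CPM with the ApoE particle, and Cyp1b1, a cytochrome P450 of sterols and retinoids, changed by −1.85 ± 0.11. On the rising side, Slc16a6, a ketone body and taurine transporter, was at 14.97 and 18.4 CPM in the controls and 50.5 and 50.1 CPM with the ApoE particle (1.59 ± 0.11), Cyb5r1, a flavin reductase, at 21.9 and 23.3 CPM in the controls and 72.4 and 61.7 CPM with the ApoE particle (1.57 ± 0.10), and Arrdc3, an arrestin-domain protein of receptor trafficking, at 78.6 and 75.3 CPM in the controls and 196 and 202 CPM with the ApoE particle (1.37 ± 0.06).

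A few abundant transcripts varied within groups more than between them. Gm23935, a short non-coding RNA gene, was at 387 and 1773 CPM in the controls, 7429 and 1298 CPM with the ApoE particle and 1115 and 474 CPM with the reconstituted particle, and Gm24270, another, at 48.2 and 110.2 CPM in the controls, 583 and 74.5 CPM with the ApoE particle and 71.4 and 44.3 CPM with the reconstituted particle. Lars2, the mitochondrial leucine enzyme, was at 1483 and 1439 CPM in the controls, 2619 and 1324 CPM with the ApoE particle and 1564 and 1512 CPM with the reconstituted particle. All 3 were highest in ApoE particle library 1, the groups overlapped for each, and none was called.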
